A study of Mus musculus with 9 samples.

Results

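Heterotrimeric G proteins carry signals from receptors in the cell membrane to enzymes and ion channels inside the cell. A G protein is an α subunit that binds GTP together with a βγ dimer. An activated receptor loads the α subunit with GTP, the α subunit and the dimer act on their effectors, and the signal ends when the α subunit hydrolyses GTP. RGS proteins (regulators of G protein signalling) speed up that hydrolysis and so shorten the signal. In the brain this cycle serves the receptors for dopamine, acetylcholine, glutamate, opioids and many peptides.

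The transcripts of these genes were examined in polyA-selected RNA-seq of whole brains from male C57BL/6J mice (wild type). The young group held 5 mice, given as 3 months old in the sample labels and as 3 or 4 months in the study's methods, and the old group held 4 mice of 33 months. Brains were frozen individually and no group received a treatment or carried an engineered allele. The mice came from a supplier or from in-house breeding, and which mouse came from where was not given in the sources used here, so the part of origin was not tested.

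Members were the protein-coding genes of the count table whose symbol names a Gα, Gβ or Gγ subunit or a numbered RGS protein. The rule used names alone and found 54 of 21811 protein-coding genes. These were 16 Gα, 5 Gβ, 12 Gγ and 21 RGS genes. Of these, 45 passed the filter on low counts (edgeR's filterByExpr) and were tested among 18492 genes. The libraries held 14229259 to 21150439 counts, of which the members took 0.537% to 0.560% in the young and 0.520% to 0.530% in the old mice. Markers of neurons, astrocytes, oligodendrocytes and microglia were detected in every library. For some members, marker lists of cells or regions in which the member is known to be expressed are given beside it. Levels within a gene are given in CPM (counts scaled to the library total, after TMM normalization), and levels between genes in TPM, which divides by gene length.

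Of the 45 tested members, 8 passed an adjusted p of 0.05 (edgeR's quasi-likelihood test, Benjamini-Hochberg over all tested genes), a share of 17.8%. The background was 2031 of 18492 genes, or 11.0%. The mRNAs of Gna15, Gnai2 and Gna13 rose in the old brain, and those of Rgs4, Rgs6, Gnb4, Gnal and Gnas fell. The share of members called higher was 6.67% against a background of 6.09%, and the share called lower was 11.1% against 4.89%. The changes were small. Of the called members, only Gna15 moved by more than 0.58 on the log2 scale, a size that 2.50% of all tested genes passed together with the adjusted p. The median log2 fold change (old minus young) was -0.040 over the 45 members and -9.2e-05 over all tested genes, with 15 members above 0 and 30 below. By class, 3 of 13 Gα genes rose and 2 fell, 1 of 4 Gβ and 2 of 17 RGS genes fell, and no Gγ gene of 11 was called. Without adjustment, 17 members had a p under 0.05 (37.8%, background 25.5%). In 9 members the CPM of the young and old mice did not overlap (20.0%, background 12.6%), with 4 higher in the old mice (background 6.50%) and 5 lower (6.08%).

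**Figure D1:**
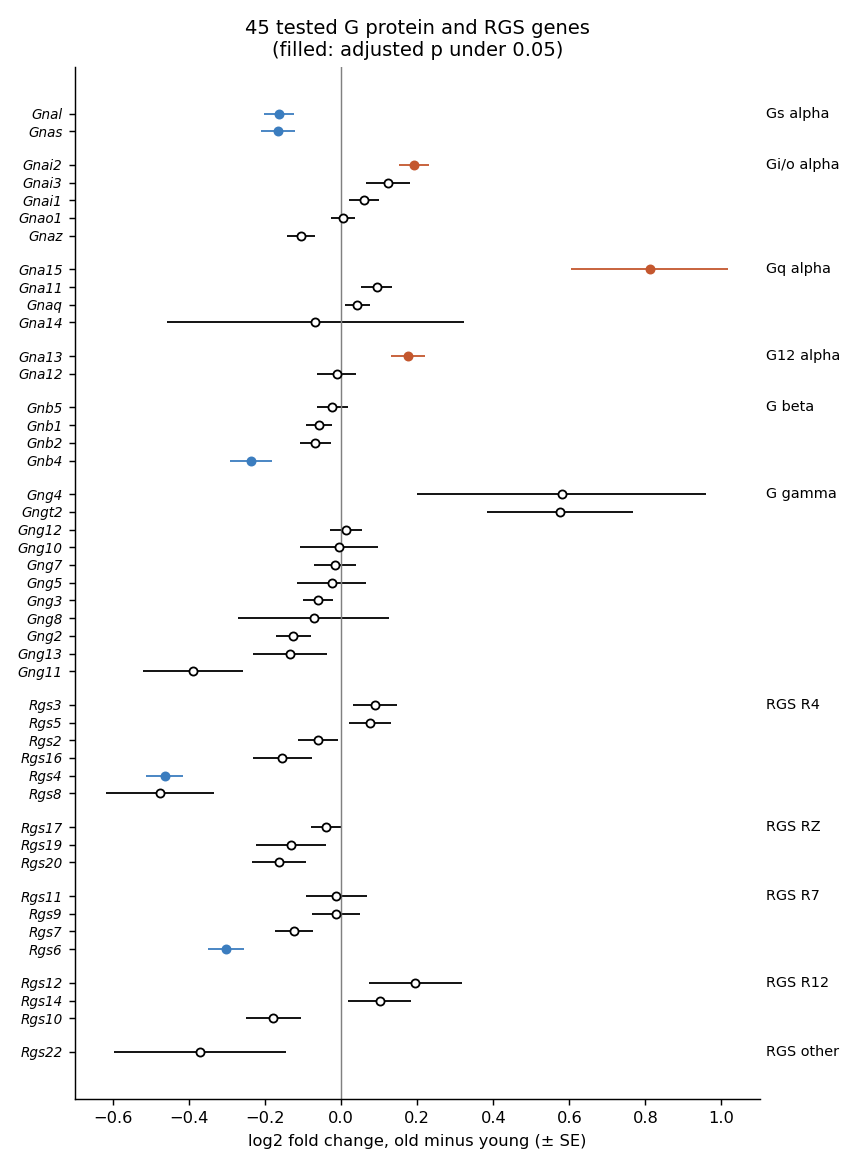
Log2 fold change (old minus young, x axis, with its SE as bars) of the 45 tested genes from edgeR, grouped by subfamily with 5 young and 4 old mice. Filled points passed an adjusted p of 0.05: Gna15, Gnai2 and Gna13 lie to the right of 0, and Rgs4, Rgs6, Gnb4, Gnas and Gnal to the left.

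The deposited TPM values gave a different scale for the whole table. The scale also differed between libraries of one age. Gnb1 stood at 611 and 596 CPM in young replicates 1 and 3, but at 390 and 476 TPM. On log2(TPM + 1) the median of all genes was -0.14 and that of the members -0.19. Only Rgs4 of the 8 called genes stayed below an adjusted p of 0.05 with limma on that scale, while Rgs8 and Gng11 were then called lower. The sign of each of the 8 changes was the same on both scales, but for Gnai2 and Gna13 little was left of the change, 0.027 and 0.0083. Relative to the shift of all genes, these lay above the median gene.

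RGS4 accelerates GTP hydrolysis on Gi/o and Gq α subunits and is abundant in cortical and striatal neurons. Its transcript showed the smallest p of all members. In the young mice it stood at 247, 248, 223, 248 and 226 CPM, and in the old mice at 165, 190.4, 169.6 and 168. Every old mouse lay below every young one, with a gap between 190.4 and 223 CPM. The mean was 239 ± 12.6 CPM (SD, n = 5) in the young and 173 ± 11.7 (SD, n = 4) in the old mice. The mRNA fell by 0.46 on the log2 scale (SE 0.048), a change of -27.5%, with an adjusted p of 2.0e-05 in edgeR. It was called without any single mouse and in every other fit tried, where its largest adjusted p was 0.0083. Rgs4 lies on chromosome 1 at chr1:169741477-169747642, minus strand (GRCm38), and no exon of another gene overlaps it.

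RGS6 belongs to the R7 group of RGS proteins, which pair with the Gβ subunit GNB5 in neurons and act on Gi/o. The 5 young mice had 57.8, 58.7, 64.6, 64.9 and 62.7 CPM of Rgs6, and the 4 old mice 48.3, 52.3, 50.1 and 49.7. The lowest young mouse was above the highest old mouse. The transcript fell by 0.30 (SE 0.047, adjusted p = 0.00064 in edgeR), or -18.9%. The 8 neuronal markers summed to 5446 to 5825 CPM in young and 5302 to 5465 CPM in old mice, with a median log2 fold change of -0.14 and 7 of 8 below 0. Of these, Tubb3 and Stmn2 fell and none was at 0. The part of neuronal RNA in the falls of Rgs4 and Rgs6 was not tested. Rgs6 maps to chr12:82588292-83162056, plus strand, where an exon of Gm29530 overlaps it on the other strand. The study's methods describe counting by strand only for stranded libraries and do not say that these were, so reads of such a pair may be mixed.

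The promoters of the called members with the smallest adjusted p in each direction are shown, because these genes carry the comparison. Each runs from 250 bases before to 50 bases after the RefSeq start on GRCm38.p6, 5′ to 3′ on the strand of the gene. Capitals mark matches on either strand to TGACGTCA (the cAMP response element), GGGCGG (the GC box), TATAAA (the TATA box) or CCAAT. RefSeq entries were matched for 40 of the 54 members, with none for Gnai2. The windows are chr1:169747593-169747892 on the minus strand for Rgs4, chr12:82617249-82617548 on the plus strand for Rgs6 and chr10:81524176-81524475 on the minus strand for Gna15. The windows of Rgs4 and Gna15 span the annotated start of the gene. The Rgs6 window lies inside the gene, downstream of its annotated start at 82588292, so it shows an internal start and not the first one.
Rgs4: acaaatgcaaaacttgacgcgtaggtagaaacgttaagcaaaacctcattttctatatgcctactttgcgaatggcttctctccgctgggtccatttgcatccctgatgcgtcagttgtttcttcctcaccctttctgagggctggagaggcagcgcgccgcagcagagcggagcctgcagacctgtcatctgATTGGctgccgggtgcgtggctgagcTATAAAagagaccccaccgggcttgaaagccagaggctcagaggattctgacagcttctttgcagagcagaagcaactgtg
Rgs6: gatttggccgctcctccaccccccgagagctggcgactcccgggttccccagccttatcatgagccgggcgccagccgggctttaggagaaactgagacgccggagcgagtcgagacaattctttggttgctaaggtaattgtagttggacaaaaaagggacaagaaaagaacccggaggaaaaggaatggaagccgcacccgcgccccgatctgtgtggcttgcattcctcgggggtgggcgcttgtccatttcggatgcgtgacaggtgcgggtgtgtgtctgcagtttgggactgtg
Gna15: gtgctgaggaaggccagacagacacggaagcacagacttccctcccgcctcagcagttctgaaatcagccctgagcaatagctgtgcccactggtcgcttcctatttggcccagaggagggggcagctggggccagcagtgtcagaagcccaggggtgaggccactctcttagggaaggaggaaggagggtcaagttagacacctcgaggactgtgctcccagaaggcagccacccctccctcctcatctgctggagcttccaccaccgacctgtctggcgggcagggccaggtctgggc
The Rgs4 window held 1 TATAAA and 1 CCAAT on the opposite strand (written ATTGG), and the windows of Rgs6 and Gna15 held no match. Among 32851 RefSeq promoters of this length, 1.79% held TGACGTCA, 35.66% GGGCGG, 13.62% TATAAA and 37.41% CCAAT. These are counts of letters and not measured sites.

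The Gs class of α subunits stimulates adenylyl cyclase. Its members are Gnas, which encodes the subunit found in most cells, and Gnal, which encodes the Golf subunit of striatal neurons and the olfactory system. Gnal stood at 250.5, 225, 228, 226 and 231 CPM in the young mice and at 215, 205, 207 and 201 in the old mice. The ages did not overlap, and young replicate 1 lay apart at the top. The transcript fell by 0.16 (SE 0.039, adjusted p = 0.012 in edgeR), from 232 ± 10.5 to 207 ± 5.90 CPM (SD, n = 5 and 4). Gnal lies at chr18:67088216-67226792 and shares an exon overlap with Mppe1 on the other strand. For Gnas the young mice had 623, 724, 711, 677 and 718 CPM and the old mice 611, 589, 628 and 634. Young replicate 1, at 623, lay below old replicates 4 and 5, so the ages overlapped. Gnas fell by 0.17 (SE 0.044, adjusted p = 0.022 in edgeR). This call was lost without young replicate 2, 3 or 5 or without old replicate 1 or 3, where the adjusted p lay between 0.050 and 0.069, and over all fits tried it lay between 0.00043 and 0.36. Gnas sits in an imprinted locus at chr2:174284320-174346744 with several first exons, which a count per gene does not separate, and exons of Nespas and Gm20721 overlap it on the other strand. Markers of striatal medium spiny neurons, the cells in which Gnal is known to be strong, summed to 864 to 963 CPM in young and 840 to 968 CPM in old mice. Of these 12 markers, 1 rose and 2 fell, and none was at 0. Their part in the change of Gnal was not tested.

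**Figure D2:**
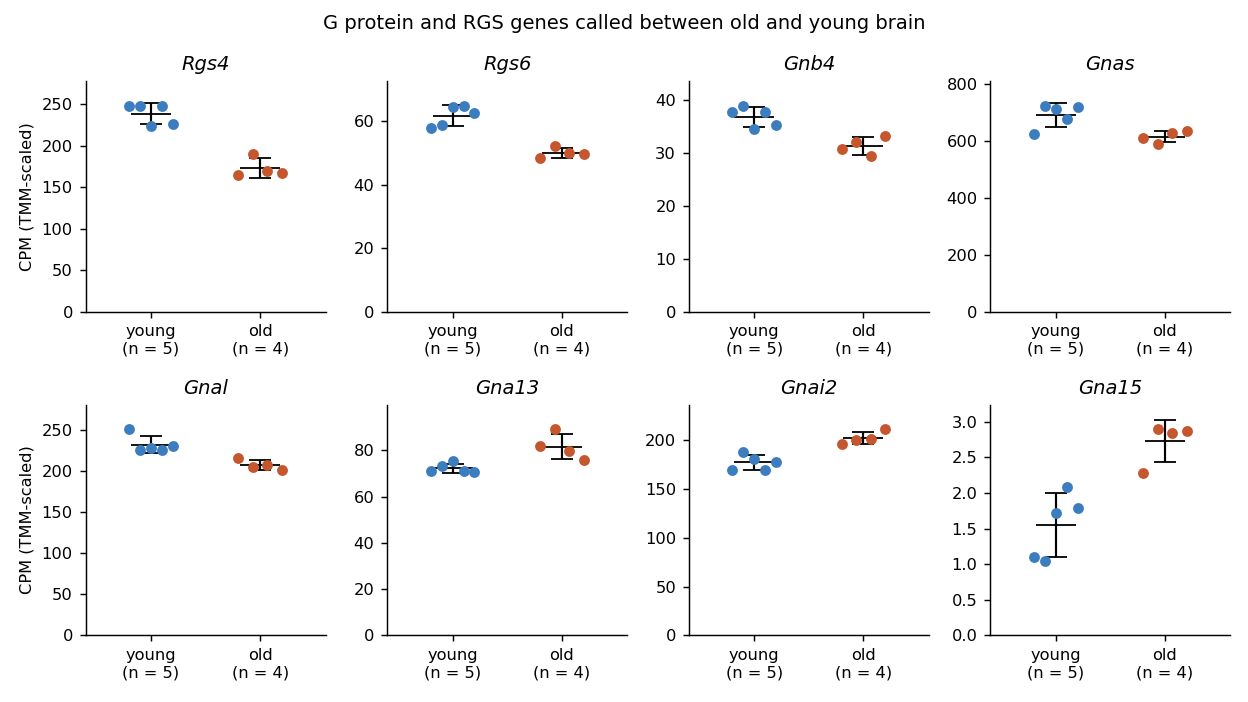
CPM (y axis, from 0) of the 8 called genes in each of the 5 young and 4 old mice, with the mean and SD as bars. The points of the ages do not overlap for any gene but Gnas, where young replicate 1 at 623 CPM lies among the old mice.

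The Gi/o class inhibits adenylyl cyclase and, through its βγ dimers, opens potassium channels and closes calcium channels. Gnai2, the member of the class that is also abundant in glia and immune cells, stood at 169, 188, 181, 169 and 177 CPM in the young and 196, 200.0, 201 and 211 CPM in the old mice. All old mice were above the young mice. Gnai2 rose by 0.19 (SE 0.040, adjusted p = 0.0049 in edgeR), or 14.2%. It lies at chr9:107614125-107635367, minus strand. Gnao1, the main G protein α subunit of neurons, had the highest TPM of the class, with 751 to 766 CPM in young and 751 to 766 CPM in old mice. Its log2 fold change was 0.0057 (SE 0.031), and it was not called (adjusted p = 0.94 in edgeR). Gnaz, an α subunit that resists pertussis toxin, had 81.4, 78.8, 76.2, 79.2 and 79.5 CPM against 75.2, 72.4, 72.5 and 73.6 CPM. The ages did not overlap, but the difference of -0.11 (SE 0.036) did not pass (adjusted p = 0.071 in edgeR). Gnai1 and Gnai3 differed by 0.059 and 0.12 and were not called.

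The Gq/11 class activates phospholipase C β. Gna15 encodes a promiscuous member that is known mainly from blood cells and other non-neuronal cells, and it is scarce in brain. It stood at 1.10, 1.05, 1.72, 2.08 and 1.79 CPM in the young mice and 2.28, 2.89, 2.85 and 2.88 CPM in the old mice. The old mice were all higher, although old replicate 1 lay close to young replicate 4. Gna15 rose by 0.81 (SE 0.21, adjusted p = 0.017 in edgeR), or 75.5%, on counts of 19 to 52 a library. The gene lies at chr10:81502306-81524225, minus strand. Microglial markers (8 genes, 1 of which rose, none at 0) summed to 201 to 296 CPM in the young mice, with 296 in young replicate 4 and at most 219 in the others, and to 272 to 294 CPM in the old mice. Gna15 was 0.481% to 0.892% of that sum in the young and 0.840% to 1.05% in the old mice. The markers of red blood cells (5 genes, 3 of which rose) summed to 86.1 to 116 CPM in young and 128 to 409 CPM in old mice. The part of either cell type in the rise of Gna15 was not tested, and more cells of a type and more RNA per cell cannot be told apart in whole tissue. The abundant members Gnaq and Gna11 differed by 0.042 (adjusted p = 0.46 in edgeR) and 0.093 (0.16), and Gna14 was near the limit of detection at 0.293 to 1.13 CPM over all mice.

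The G12/13 class acts on the cytoskeleton through guanine nucleotide exchange factors. Gna13 had 71.2, 73.1, 75.3, 71.2 and 70.5 CPM in the young and 82.0, 89.1, 79.6 and 76.0 CPM in the old mice. The lowest old mouse exceeded the highest young mouse by a narrow margin. Gna13 rose by 0.18 (SE 0.045, adjusted p = 0.018 in edgeR), and the call was lost without old replicate 3 (0.059) and on the TPM scale (up to 0.98). It lies at chr11:109362831-109401369, where an exon of Gm11696 overlaps it on the other strand. Its relative Gna12, with the higher TPM of the pair, had a log2 fold change of -0.012 (SE 0.050) and was not called.

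Gβ subunits form tight dimers with Gγ subunits. Among the Gβ transcripts Gnb1 led, with 58.4% ± 0.523 of them per length in young and 58.3% ± 0.863 in old mice (SD, n = 5 and 4). Gnb2 followed with 26.0% and 25.8%, and Gnb5, the partner of the R7 group of RGS proteins, with 14.3% and 14.7%. Gnb4 was a minor member of 1.19% and 1.06%, and it was the Gβ gene that was called. Its CPM were 37.8, 38.9, 34.5, 37.7 and 35.3 in the young and 30.8, 32.1, 29.4 and 33.2 in the old mice. The ages did not overlap. Gnb4 fell by 0.24 (SE 0.054, adjusted p = 0.0089 in edgeR), or -15.2%, and it lies at chr3:32580332-32616585, minus strand. Gnb1 and Gnb2 differed by -0.058 (SE 0.035) and -0.068 (SE 0.040), and Gnb5 by -0.024 (SE 0.041), and none of these was called.

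In the main edgeR fit of all 9 mice no Gγ gene was called, and none was with DESeq2's Wald test. Some other fits called a Gγ gene, as given below. In the main fit 3 of the 11 had an unadjusted p under 0.05. The abundant members Gng3, Gng7 and Gng2, the last a common partner of Gβ1, held 33.4%, 16.2% and 15.8% of the Gγ transcripts per length in the young and 32.7%, 16.3% and 14.8% in the old mice. Gng2 differed by -0.13 (SE 0.046, adjusted p = 0.090 in edgeR), and it was called lower without the filter on low counts (0.021), in a range of up to 0.43 over all fits tried. Gng5, Gng8, Gng10, Gng12 and Gng13 had log2 fold changes from -0.13 (Gng13, SE 0.097) to 0.013 (Gng12, SE 0.042). Gngt2, a Gγ subunit first known from cone photoreceptors and also detected in microglia, had 1.25, 1.16, 1.17, 1.50 and 1.17 CPM in the young and 2.23, 1.69, 1.97 and 1.58 CPM in the old mice. All old mice were higher, by 0.58 (SE 0.19, adjusted p = 0.062 in edgeR), and without young replicate 4 the gene was called (0.048). Over the other fits its adjusted p ranged up to 0.47. That mouse was also the young mouse with the highest sum of microglial markers, and of activated microglial markers, which summed to 159 CPM there. The remaining young mice had at most 106 CPM of the latter and the old mice 135 to 181 CPM (3 of these 8 markers rose, none at 0). Gngt2 was 0.506% to 0.597% of the microglial marker sum in the young and 0.540% to 0.820% in the old mice. Exons of Abi3 overlap Gngt2 on the other strand. The part of microglia in the level of Gngt2 was not tested.

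Gng11, a Gγ subunit of endothelial cells and other non-neuronal cells, went the other way. It had 11.9, 8.80, 14.2, 9.37 and 11.9 CPM in the young and 7.28, 9.66, 8.59 and 8.69 CPM in the old mice. The ages overlapped. The difference was -0.39 (SE 0.13, adjusted p = 0.070 in edgeR), and it passed without young replicate 2 (0.026) or 4 (0.037), in a range of 0.0018 to 0.19 over all fits tried. Endothelial markers summed to 250 to 268 CPM in young and 282 to 322 CPM in old mice, with 4 of 8 higher and none at 0, so Gng11 was 3.39% to 5.31% of that sum in the young and 2.29% to 3.32% in the old mice. Gng4 had a log2 fold change of 0.58 as large as that of Gngt2, with an SE of 0.38 and an adjusted p of 0.40 in edgeR. Its CPM were 40.6, 75.3, 37.8, 38.4 and 42.4 in the young and 54.2, 70.0, 37.8 and 119.6 in the old mice. The high mice were young replicate 2 and old replicates 1, 3 and 5. These were the mice with the highest sums of the 4 olfactory bulb markers, 59.2 CPM in young replicate 2 and 32.3, 45.1 and 126 CPM in those old mice, against 12.7 to 17.9 CPM in the other 5 mice. None of these markers was called or had an unadjusted p under 0.05 in edgeR, and Tbx21 was at 0 in at least 1 young mouse. How much olfactory bulb each brain held was not given in the sources used here, and its part in Gng4 was not tested.

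**Figure D3:**
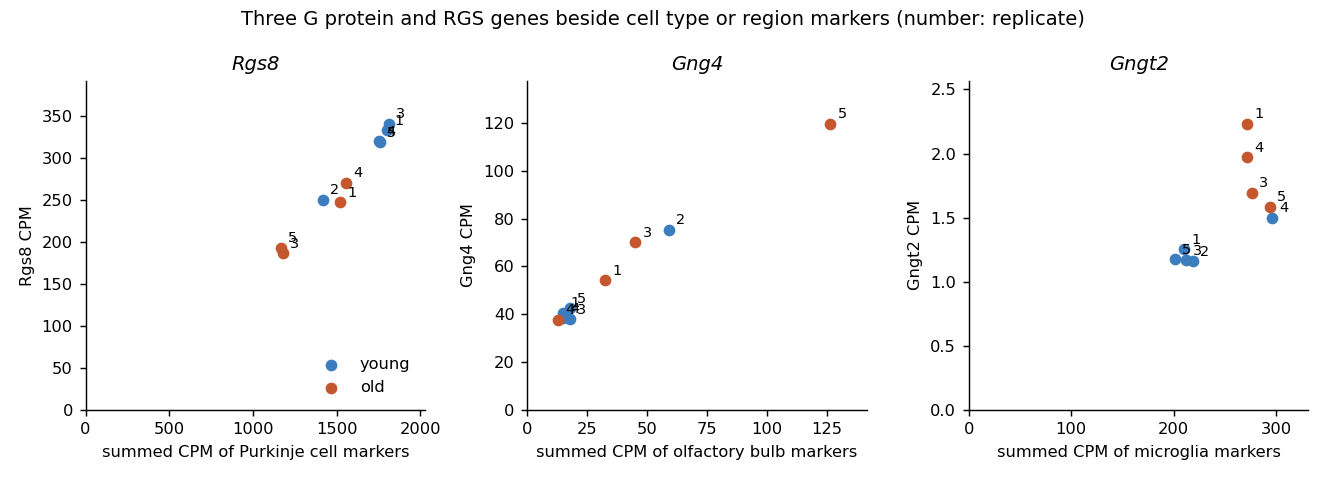
CPM of Rgs8, Gng4 and Gngt2 (y axes) against the summed CPM of Purkinje cell, olfactory bulb and microglial markers (x axes) in each mouse, with replicate numbers beside the points. Young replicate 2 lies with the old mice for Rgs8 at 250.2 CPM and is the highest young mouse for Gng4 at 75.3 CPM, and young replicate 4 has the most microglial marker RNA of the young mice at 296 CPM.

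Rgs8, an R4 group member that is strong in cerebellar Purkinje cells, had the largest negative log2 fold change of all members and was not called. The young mice stood at 333, 250.2, 341, 320.2 and 319 CPM and the old mice at 248, 187, 271 and 193. The ages overlapped through young replicate 2, which lay below old replicate 4. The difference was -0.48 (SE 0.14, adjusted p = 0.077 in edgeR). With single mice left out, it was called without young replicate 2 (0.036) and without old replicate 4 (0.045). It was also called in 5 of 10 other fits, DESeq2's Wald test among them (0.011). Over all fits tried the adjusted p lay between 0.0046 and 0.17. The 8 Purkinje cell markers summed to 1803, 1419, 1811, 1753 and 1759 CPM in the young and 1520, 1178, 1559 and 1168 CPM in the old mice. Young replicate 2 was the lowest young mouse and old replicates 3 and 5 were the lowest old mice, as for Rgs8. All 8 had a negative log2 fold change and none was at 0. By edgeR none was called and 4 had an unadjusted p under 0.05. Rgs8 was 17.6% to 18.8% of that sum in the young and 15.9% to 17.4% in the old mice. The share of cerebellum in each brain was not given in the sources used here, and its part was not tested.

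The other members of the R4 group were not called. Rgs5, which is known from pericytes and smooth muscle, differed by 0.075 (SE 0.056) and was 56.4% to 67.5% of the summed pericyte and smooth muscle markers in the young and 56.7% to 63.9% in the old mice. Rgs2, Rgs3 and Rgs16 had log2 fold changes of -0.060, 0.088 and -0.16, each with an adjusted p of 0.23 or more in edgeR. Rgs2 is itself induced by neuronal activity. Of 11 other activity-regulated genes such as Fos and Arc, 6 fell and none was at 0, and their sum was 784 to 1024 CPM in young and 627 to 737 CPM in old mice. The part of neuronal activity in the RGS transcripts, Rgs4 included, was not tested.

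In the R7 group, Rgs7 had 69.4, 73.8, 64.5, 72.8 and 66.7 CPM in the young and 68.6, 65.0, 61.2 and 60.6 CPM in the old mice, a difference of -0.12 that was not called (adjusted p = 0.13 in edgeR). Rgs9, the striatal and retinal member, and Rgs11 had log2 fold changes of -0.014 (SE 0.063) and -0.013 (SE 0.080). Rgs6 was thus the single called gene of the 4, and the difference between its change and those of the others was not tested. In the RZ group, Rgs20 differed by -0.16 (adjusted p = 0.15 in edgeR), with Rgs17 and Rgs19 at -0.040 and -0.13. In the R12 group, Rgs10, a member that is abundant in microglia and lymphocytes, differed by -0.18 (adjusted p = 0.13 in edgeR), and its CPM were 16.8 to 19.8 in the young and 14.1 to 17.0 in the old mice. Microglial markers summed to 201 to 296 CPM in young and 272 to 294 CPM in old mice. Lymphocyte markers (8 genes, 2 of which passed the filter) summed to 8.65 to 12.5 and 8.86 to 10.5 CPM. The part of these cells in the level of Rgs10 was not tested. Rgs12 and Rgs14 differed by 0.20 (SE 0.12) and 0.10 (SE 0.082). Rgs22 was scarce, at 1.23 to 2.47 CPM over all mice.

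Within each library the members were set against their class by TPM, so that the scale of the library drops out. Gnao1, Gnai1, Gnas and Gnai2 led the Gα transcripts with 15.9%, 14.5%, 14.3% and 10.9% in the young mice and 15.9%, 15.03%, 12.7% and 12.3% in the old mice. Gnas lost 1.64 percentage points and Gnai2 gained 1.46. The share of Gnas was 13.02% to 14.8% in the young and 12.2% to 13.03% in the old mice. Among the RGS genes, Rgs4 led with 31.6% ± 1.18 of the RGS transcripts per length in young and 26.6% ± 1.36 in old mice (SD, n = 5 and 4), with ranges of 30.4% to 33.2% and 25.6% to 28.6%. The difference was -4.99 percentage points by TPM, the largest of the members on that measure, and -3.07 by counts not divided by length. Rgs8 held 13.3% and 11.1%, and Rgs5 8.73% and 10.7%. The shares of a class are parts of one whole, so a lower Rgs4 share raises those of other genes. The Rgs5 transcript itself was not called, with a log2 fold change of 0.075 in edgeR. Gng4 had 6.23% ± 1.98 of the Gγ transcripts in young and 9.49% ± 4.47 in old mice, the widest spread of all these shares.

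**Figure D4:**
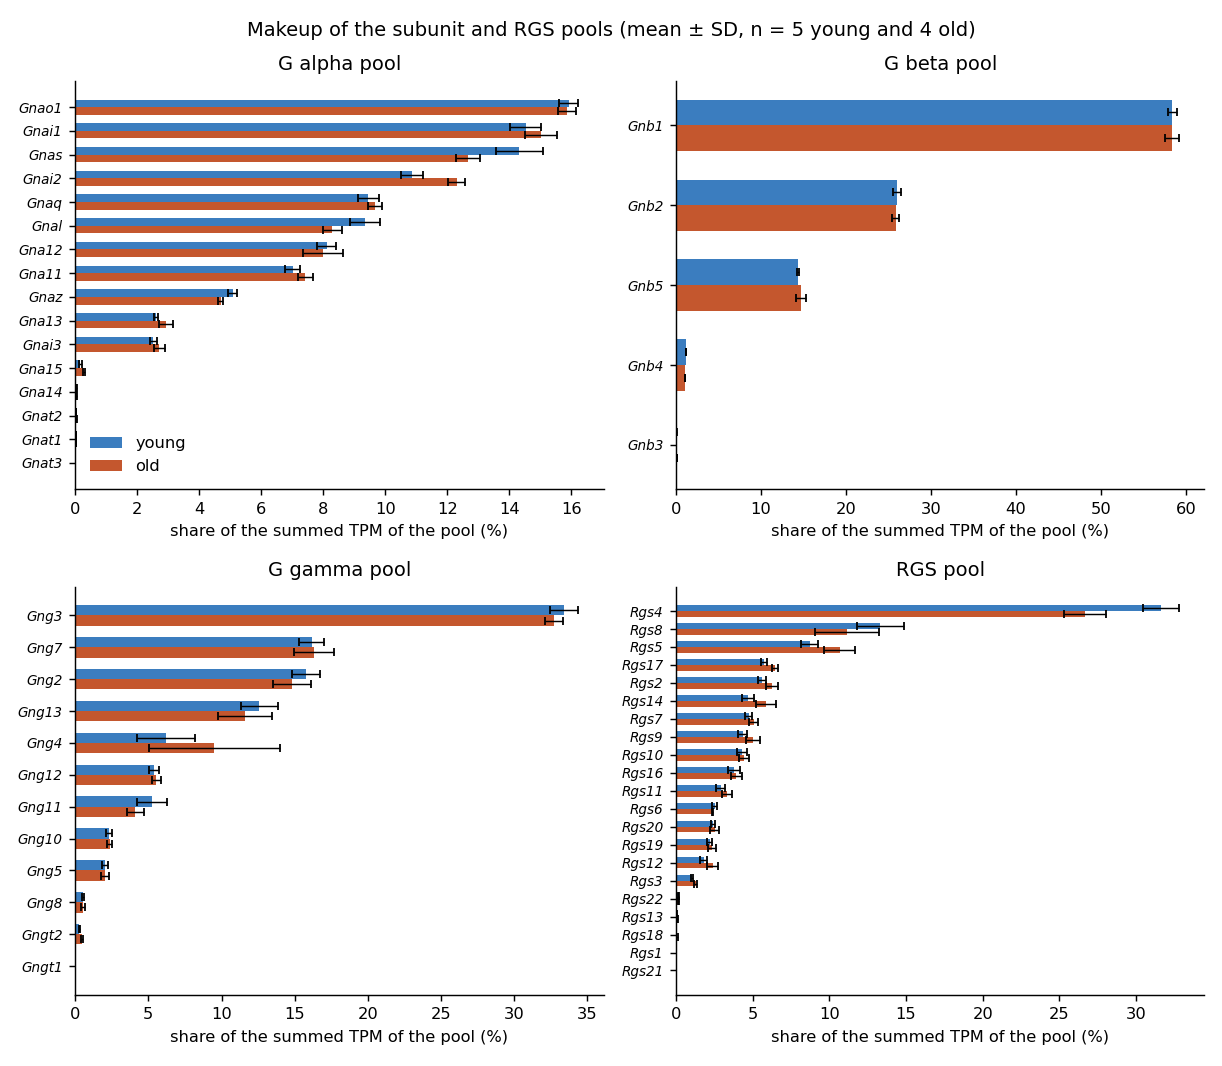
Share of each gene in the summed TPM of its class (x axis, %, mean with SD as error bars) for Gα, Gβ, Gγ and RGS genes in 5 young (blue) and 4 old (orange) mice. Rgs4 is the largest RGS share in both ages, 31.6% in young and 26.6% in old mice, while the Gβ shares of the ages lie within 1 percentage point.

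A total of 9 members did not pass the filter. Gngt1, Gnat3 and Rgs21, known from rod photoreceptors and taste cells, had 0 counts in every library, which allows up to 0.142 to 0.211 CPM (3 counts a library, for counting error only). The phototransduction subunits Gnb3, Gnat1 and Gnat2 had 5 to 14, 4 to 9 and 3 to 10 counts a library. Rgs1, Rgs13 and Rgs18, known from blood and immune cells, had 0 to 9, 0 to 7 and 0 to 13 counts, with the 13 counts of Rgs18 in old replicate 4. That mouse also had the highest sum of platelet markers, 15.9 CPM against at most 4.62 CPM in the other mice.

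The partners and effectors of G proteins were followed in a list of 63 genes, of which 61 were tested and 7 were called (11.5%, background 11.0%). Their median log2 fold change was -0.019, with 22 above and 39 below 0. Among the adenylyl cyclases, which make cAMP, Adcy9 rose by 0.25 and Adcy4 by 0.58, and Adcy3 fell by 0.16 (adjusted p = 0.0054, 0.0066 and 0.031 in edgeR). Adcy5, the cyclase downstream of Golf in the striatum, differed by -0.10 and was not called (0.13). Of the 6 protein kinase A genes, the catalytic subunit Prkaca fell by 0.21 from 215 ± 8.46 to 186 ± 11.1 CPM (SD, n = 5 and 4, adjusted p = 0.0049 in edgeR), and the regulatory subunit Prkar2b fell by 0.21 (0.024). Gpr158, a receptor that anchors R7 proteins with GNB5 at the membrane, fell by 0.17 (0.013), and Pdcl, a chaperone in the assembly of βγ dimers, fell by 0.23 (0.015). None of the phospholipase C β, GIRK channel, G12/13 exchange factor, receptor kinase, arrestin, GoLoco or phosphodiesterase genes passed. Of these, 7 had an unadjusted p under 0.05, and Gpsm1, a GoLoco protein that binds free Gi α subunits, came nearest with 0.26 (adjusted p = 0.051 in edgeR).

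**Figure D5:**
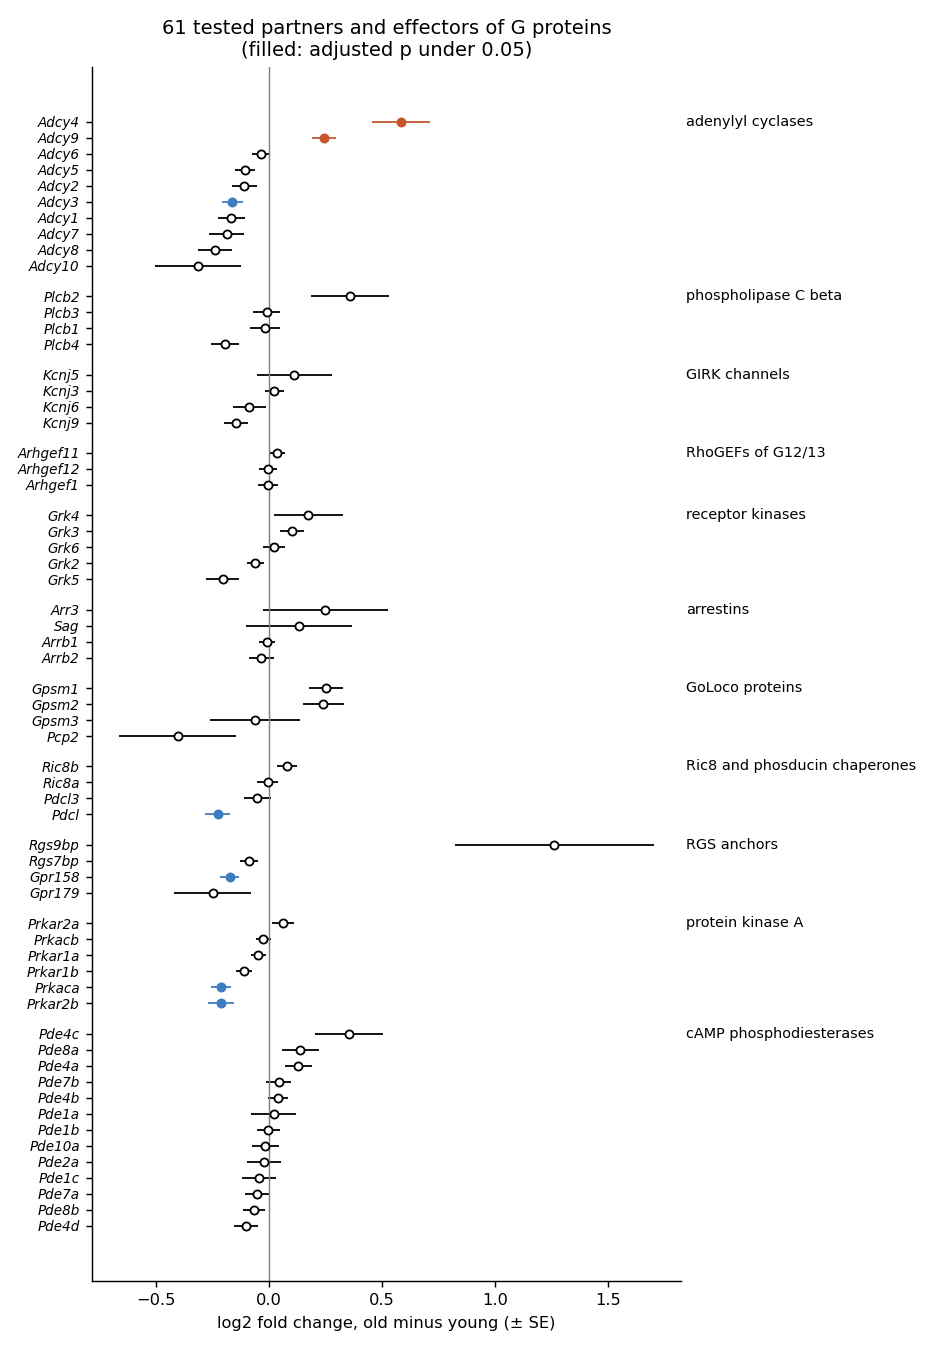
Log2 fold change (old minus young, x axis, with its SE as bars) of 61 tested partners and effectors of G proteins from edgeR, grouped by function, with 5 young and 4 old mice. The 7 filled points passed an adjusted p of 0.05: Adcy9 and Adcy4 to the right of 0 and Adcy3, Prkaca, Prkar2b, Gpr158 and Pdcl to the left.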

How the data were processed

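The RNA-seq of individual whole brains covered 5 young and 4 old mice. The authors trimmed the reads with Trimmomatic, aligned them to Ensembl GRCm38 with STAR and counted unique reads on exons with featureCounts, and the submitters' processing notes also name DESeq2. The deposited counts are whole reads per gene without normalization. The normalized counts deposited by the authors are a signal, the counts over 1 size factor per library. The TPM values deposited by the authors divide counts by gene length, with a length table not given in the sources used here. Each table held 1 further column, labelled as another old replicate, that matched no sample, and it was not used. The study's figures give 5 mice per age for its transcriptome data.

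Old and young mice were compared on the counts with edgeR's quasi-likelihood test (edgeR 4.0.16, R 4.3.3) after filterByExpr (minimum count 10, minimum total 15) and TMM scaling, with robust dispersion estimates and Benjamini-Hochberg adjustment over 18492 genes. SE came from the fold change and its test statistic. The main threshold was an adjusted p of 0.05. Each library came from an individual mouse and was 1 replicate. Libraries of one age differed by more than sampling noise (chi-square over degrees of freedom from 4.04). Precision was set by the spread between mice, with a biological coefficient of variation of 6.71% and a median SE of 0.085 (log2). Symbols and positions came from GENCODE M21, with 259 of 49315 gene IDs without a symbol, and promoters from RefSeq. The test was checked on simulated data. Of the members, 16 share exon sequence with a gene on the opposite strand and 2 with one on the same strand.

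The members, the list of partners and the marker lists were chosen with earlier results of these data known. Genes named are the called members, those with an unadjusted p under 0.05, the most abundant gene of each subfamily, members below the filter and called partners. Other members are named by their values for completeness. Protein sequences were not used here. Alternatives were DESeq2 1.42.0 (Wald test and size factors), upper quartile scaling, other filters, limma 3.58.1 on log2 values, a block by replicate number, other thresholds, each mouse left out, and, chosen after seeing the data, dispersion estimates without the robust option. Marker lists not given beside a member, and lists given only as detected, are not reported further here.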

Additional observations from a re-analysis of the deposited data

Results flagged for a closer look

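In the groups of 5 young or 4 old mice, 98 sets of values were examined for a mouse far from the others of its age. The sets were the CPM of each tested member and the class share of the leading gene of each class. Among them 6 were found, all of CPM, where chance alone would give about 4.9 (1 in 20). Gng4 in young replicate 2 stood at 75.3 CPM, against 37.8 to 42.4 in the other young mice, and Rgs8 in the same mouse at 250.2 CPM, against 319 to 341. Gngt2 in young replicate 4 stood at 1.50 CPM, against 1.16 to 1.25. Gnal in young replicate 1 stood at 250.5 CPM, against 225 to 231. Gna15 in old replicate 1 stood at 2.28 CPM, against 2.85 to 2.89 in the other old mice, and Rgs16 in old replicate 3 at 17.1 CPM, against 19.9 to 20.0. The causes were not tested.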

How the results depend on the processing

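No direction of a called member turned under any alternative. At an adjusted p of 0.01, 4 members (1 higher, 3 lower), 3 partners and 873 genes in all were called, and with a fold threshold of 0.58 added 1 member (1 higher, 0 lower), 1 partner and 463 genes. With limma on log2(TPM + 1), 3 members (0 higher, 3 lower), 1 partner and 594 genes were called and the members' median was -0.19. With log2(TPM + 0.1) these were 3, 0, 3, 1 and 600, and the median -0.20, where all genes shifted by -0.16. On both TPM scales 9 uncalled members that were above 0 on counts had negative values, from -0.044 (Gnai3) to -0.16 (Gnao1) with the latter pseudocount. The partners called numbered 11 with DESeq2's Wald test and 14 without a filter on low counts. On counts not divided by length, Gnao1 gained 0.53 percentage points of the Gα class in place of -0.045, and Rgs4 differed by -3.07 in place of -4.99. The causes of these differences were not tested. Leaving out one mouse gave 6 to 10 called members, 6 to 10 called partners and 1516 to 2034 called genes.

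No clear pairing of the mice by replicate number was seen, although so few mice cannot exclude one. Same-numbered mice had correlations of 0.17, -0.12, 0.088 and -0.024 between their deviations, and 3 of 8 libraries correlated best with their own number. With the replicate block, 9 members (3 higher, 6 lower), 9 partners and 1828 genes were called, and the median was -0.038. The added call was Gng11 (adjusted p = 0.016 in edgeR). No old replicate 2 was used, so young replicate 2 had no partner and did not bear on the age difference in this fit. Gng11 was also called when that mouse was left out without a block (adjusted p = 0.026 in edgeR). The added call can therefore not be assigned to the pairing. Without robust dispersion estimates, chosen after seeing the data, 9 members and 2039 genes were called.

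Genes under about 3 CPM, such as Gna15, Gngt2 and Rgs22, rest on few counts, and a difference there had to be large to pass. Whole tissue does not separate the share of a cell type or region from the level per cell. Young mice numbered 5 and old mice 4.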
